A study of Homo sapiens with 12 samples.

Results

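The 55 genes described here are nuclear genes for subunits of the mitochondrial respiratory chain. Their transcripts were followed in MCF10-A cells made to express p16 or p21. They were chosen by gene name and make up 55 of the 57133 gene names in the deposited count files, and the rule itself used no measured value. Complex I is represented by 32 genes, complex II by 4, complex III by 7 and complex IV by 11. The remaining gene, ATP5MC2, does not encode a chain subunit but the c subunit of the ATP synthase rotor, so 54 of the 55 names stand for the chain itself. NDUFA4 is counted with complex IV, where its protein is known to reside despite its name.

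MCF10-A is an established, non-tumorigenic human breast epithelial cell line. All 12 cultures carried a transgene switched on by doxycycline (50 ng/ml) and were collected on day 5, with 3 biological replicates in each of 4 groups. The transgene of the mVenus group encoded only mVenus, a yellow fluorescent protein, and no arrest protein. In the p16 group mVenus was fused to p16, in the p21 group it was fused to p21, and both proteins inhibit cyclin-dependent kinases. A further set of p16 cells received the mTOR kinase inhibitor Torin2 at 100 nM, and the other 3 groups received DMSO. Torin2 was given to p16 cells only, so its effect in mVenus or p21 cells was not measured. RNA was taken from whole cultures, and levels are relative to each library's total, so fewer transcripts per cell and fewer cells with a transcript cannot be told apart.

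The respiratory chain passes electrons from NADH, through complex I, and from succinate, through complex II, to ubiquinone, then through complex III and cytochrome c to complex IV, which reduces oxygen. Complexes I, III and IV pump protons, and ATP synthase uses the resulting gradient to make ATP. Each of these complexes except complex II combines nuclear-encoded subunits with subunits encoded in mitochondrial DNA, and basal breast epithelial cells, like most cells, express the ubiquitous isoforms.

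Libraries held 13168749 to 18321114 assigned counts. CDKN2A, the gene of p16, had 0 counts in all 12 libraries, those labelled p16 included. The counts thus give no check of the p16 label. CDKN1A, the gene of p21, was highest in p21 (889 ± 16.5 CPM, counts scaled to a common library size, SD, n = 3). It was also present in the other groups, at 712 ± 13.0 in mVenus, 570 ± 30.1 in p16 and 259 ± 17.0 with Torin2. All 8 basal mammary and all 6 general epithelial markers reached a mean of 5 CPM over all 12 libraries. TP63, a basal marker, stood at 4.45 CPM in p21 and 5.18 in mVenus, against 37.3 in p16 and 77.9 with Torin2. PTPRC, CD3E and TYROBP, defining transcripts of leukocytes, had at most 1 count each over all libraries. Of the 8 fibroblast markers COL1A2 and COL3A1 had 1 and 2 counts, but FAP had 10363 and DCN 5788, and the list summed to 62.6 to 67.9 CPM in mVenus, 51.9 to 59.1 in p16, 88.3 to 94.8 with Torin2 and 154 to 162 in p21, where DCN had a mean of 109.4 CPM against 10.7 in mVenus. The basal markers summed to 6243 to 6472 CPM in mVenus, 14479 to 15343 in p16, 11123 to 11416 with Torin2 and 8605 to 8790 in p21. The share of counts from mitochondrial genes was 3.87% in mVenus and 6.02% to 6.62% in the other groups, and ribosomal protein transcripts took 6.54% with Torin2 against 2.76% to 3.57% elsewhere. The leukocyte list also summed to 54.4 to 58.3 CPM in mVenus, 114 to 127 in p16, 51.5 to 56.0 with Torin2 and 108 to 111 in p21, nearly all of it from CSF1R and CD14, and the part of these lists in the results was not tested. When both the mitochondrial and the ribosomal protein genes were left out of the library sizes and scaling, the numbers of members called differed by at most 1 from those given below.

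Of the 55 members, 52 had enough counts to be tested and 50 had a mean of at least 5 CPM. NDUFA6 had 0 counts in all libraries, NDUFS3 had 1 count and NDUFV2 had 43, and these 3 complex I genes were not tested. NDUFS1, the largest iron-sulfur subunit of complex I, had 332 counts and UQCRC2, a core protein of complex III, had 496, and neither passed the test in any comparison, although NDUFS1 passed for Torin2 against mVenus when only those libraries were fitted (log2 fold change 1.35, adjusted p = 2.07e-05). UQCRC2 was uneven among replicates, with 0.514, 0.495 and 7.07 CPM in the p21 libraries and 9.38, 6.98 and 0.262 CPM with Torin2. NDUFS3, NDUFV2 and NDUFS1 are core subunits of complex I, and their near-absent counts are described further under other observations and are not read as expression levels.

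Per annotated exonic length, in TPM within the mVenus group, the most abundant members were NDUFS5 at 1006 ± 20.6 and COX8A at 626 ± 23.7 (SD, n = 3). COX6B1 followed at 418 ± 11.1 and NDUFB7 at 379 ± 10.3, and all of these encode small accessory proteins. NDUFS7, an iron-sulfur subunit next to the ubiquinone site, stood at 5.97 ± 0.301 TPM and NDUFA9 at 4.65 ± 0.403. The order holds for the exon models used, in which NDUFA9 spans 10391 exonic bases and NDUFS5 548. Of the exonic bases of COX8A 34.5% are shared with AP000721.1.

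The first question was how the chain genes stood after 5 days of p16 relative to mVenus. Most were modestly higher in p16: 34 of the 52 tested members were higher and 2, NDUFB6 and NDUFS5, were lower, with a median log2 fold change of 0.25. A call is a Benjamini-Hochberg adjusted p under 0.05 in edgeR's quasi-likelihood test over all genes. Among all 14504 tested genes, 30.9% were called higher and 32.8% lower in this comparison, and their median was -0.004. The highest log2 fold change of a member was 0.62, and no member was called at a 2-fold difference or more, against 7.03% of all tested genes higher and 9.34% lower by that rule. Complex IV had 9 of 11 members higher and complex III 6 of 7, complex I had 16 of 29 higher and 2 lower, and complex II had 2 of 4 higher.

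Summed over the genes of each complex, complex III went from 654 ± 17.7 CPM in mVenus to 813 ± 20.8 in p16 and complex IV from 1141 ± 7.27 to 1406 ± 29.005 (SD, n = 3). Complex I went from 1325 ± 17.1 to 1490 ± 9.21 CPM and complex II from 304 ± 9.34 to 345 ± 3.66. The p16 libraries lay above all mVenus libraries in each of these sums, and the ratio of means was 1.24 for complex III, 1.23 for complex IV, 1.13 for complex II and 1.12 for complex I. The sums weigh abundant transcripts most, and no test was made on them.

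**Figure D1:**
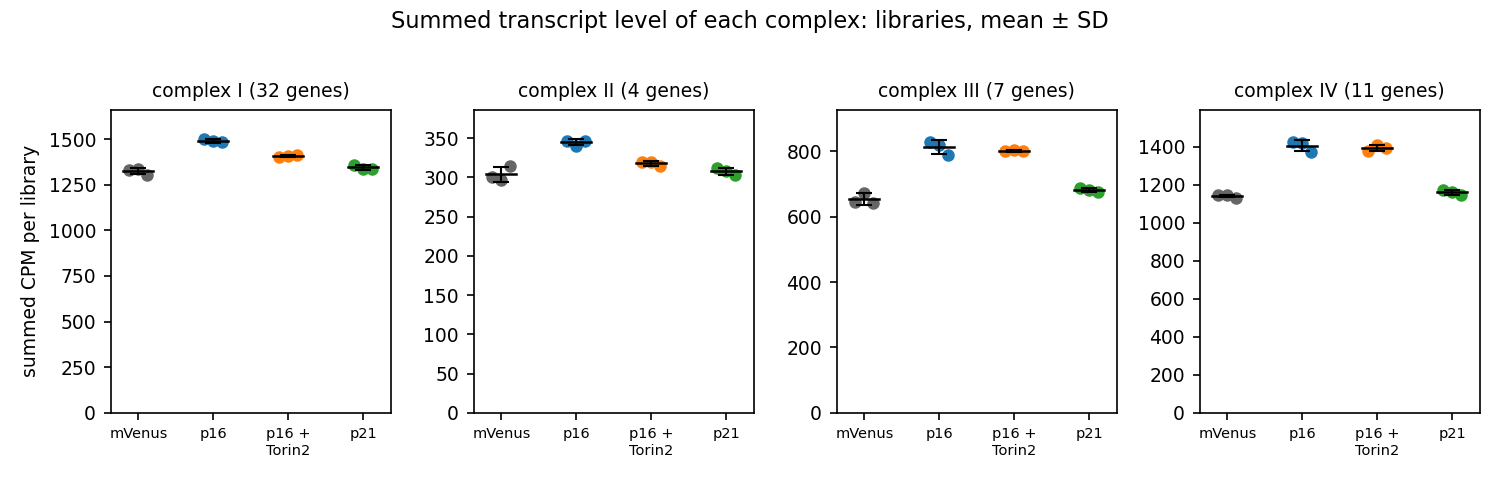
Summed CPM of the genes of complexes I to IV (vertical axes, from 0) in each of the 12 libraries by group; points are libraries, lines and bars are mean ± SD of 3. In p16 all 4 sums lie above mVenus, p21 lies between mVenus and p16 on average, and with Torin2 complexes III and IV stay near p16 (802 and 1393 CPM) while complexes I and II are lower (1407 and 318 CPM).

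Complex I takes electrons from NADH in its N module, hands them to ubiquinone in its Q module and pumps protons in its membrane arm. In the N module 2 of 6 tested members were higher in p16. NDUFV1, which binds the flavin that accepts electrons from NADH (chr11:67605653-67612554), measured 89.7, 94.7 and 90.8 CPM in mVenus, 118, 114 and 106 in p16, 114, 117 and 115 with Torin2 and 90.2, 89.8 and 85.8 in p21. The p16 and Torin2 libraries were high and the mVenus and p21 libraries low, without overlap between those pairs, and the log2 fold change of p16 against mVenus was 0.30 ± 0.04 (SE, adjusted p = 1.34e-06). NDUFA2, an accessory N module subunit with a thioredoxin-like fold (chr5:140638740-140647785), measured 32.5, 35.6 and 32.8 CPM in mVenus, 48.5, 45.7 and 41.4 in p16, 33.7, 34.2 and 34.8 with Torin2 and 49.8, 43.7 and 46.3 in p21. It was thus high in p16 and in p21 and low in mVenus and in p16 with Torin2 (p16 against mVenus 0.43 ± 0.06, adjusted p = 9.09e-07). NDUFA12, NDUFS4, NDUFS6 and the scarcely counted NDUFS1 did not pass in p16. In the Q module 1 of 4 tested members was called, NDUFS7 at 0.25 ± 0.10 (adjusted p = 0.0274). With mVenus replicate 3 left out NDUFS7 no longer passed (adjusted p = 0.118), and likewise with p16 replicate 2 left out (adjusted p = 0.0632). It did not pass by the DESeq2 Wald test on all libraries either (adjusted p = 0.0587). Of the exonic bases of NDUFS7 49.1% are shared with other genes (35.7% with AC005329.1), whose reads there were not separated.

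In the membrane arm 12 of 18 members were higher and 2 lower in p16. NDUFB5, an accessory membrane subunit (chr3:179604690-179627647), led with 55.03, 52.9 and 58.9 CPM in mVenus, 78.0, 81.3 and 83.1 in p16, 85.9, 86.3 and 88.5 with Torin2 and 68.2, 67.6 and 64.5 in p21. The groups did not overlap, and p16 was 1.45-fold above mVenus (log2 fold change 0.54 ± 0.05, adjusted p = 1.28e-10). NDUFA10, a subunit with a nucleoside kinase-like fold, was next at 0.43 ± 0.05 (adjusted p = 1.41e-08). Against this direction, NDUFB6 (chr9:32552999-32573184) measured 29.3, 30.5 and 26.1 CPM in mVenus and 25.1, 23.8 and 23.5 in p16, a log2 fold change of -0.24 ± 0.07 (adjusted p = 0.00388). NDUFS5, a small intermembrane space subunit (chr1:39026318-39034636), measured 140.0, 138 and 133 CPM in mVenus, 121, 117 and 116 in p16, 100.1, 103 and 96.4 with Torin2 and 123, 121 and 132 in p21. All mVenus libraries lay above all others, and NDUFS5 fell by 0.22 on the log2 scale in p16 (adjusted p = 7.04e-05). NDUFAB1, the mitochondrial acyl carrier protein bound in both arms, was higher by 0.18 ± 0.05 (adjusted p = 0.00307).

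Complex II oxidises succinate with its SDHA and SDHB subunits and is held in the membrane by SDHC and SDHD. SDHB, the iron-sulfur subunit (chr1:17018722-17054170), measured 76.7, 76.4 and 72.9 CPM in mVenus, 95.9, 96.4 and 97.3 in p16, 83.7, 83.5 and 82.8 with Torin2 and 75.1, 71.4 and 73.8 in p21. The p16 libraries were the highest, the Torin2 libraries were intermediate, and p21 overlapped mVenus; p16 was 1.28-fold above mVenus (log2 fold change 0.36 ± 0.04, adjusted p = 2.37e-08). SDHA, the flavoprotein that binds succinate, measured 112, 107 and 115 CPM in mVenus and 118, 113 and 116 in p16 and did not pass (0.05 ± 0.05, adjusted p = 0.310). SDHC did not pass either (0.04 ± 0.05). SDHD was higher by 0.51 ± 0.16 (adjusted p = 0.0185) but varied among replicates, with 37.8, 40.0 and 54.7 CPM in p16 and 27.4, 29.1 and 36.4 in mVenus. It no longer passed when mVenus replicate 1 (adjusted p = 0.0639) or mVenus replicate 2 (adjusted p = 0.0548) was left out. The call was also lost when only the p16 and mVenus libraries were fitted (adjusted p = 0.0782).

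Complex III passes electrons from ubiquinol to cytochrome c through the Rieske protein UQCRFS1 and cytochrome c1, encoded by CYC1. UQCRC1, a core protein facing the matrix (chr3:48599002-48610976), measured 153, 162 and 144 CPM in mVenus, 216, 213 and 204 in p16, 182, 185 and 185 with Torin2 and 165, 165 and 161 in p21. The p16 libraries lay above all others, by a log2 fold change of 0.47 ± 0.04 over mVenus (adjusted p = 3.67e-11). CYC1 was higher by 0.42 ± 0.04 (adjusted p = 1.91e-09) and UQCRFS1 by 0.16 ± 0.05 (adjusted p = 0.0036). The small subunits UQCRQ, UQCRB and UQCRH were higher by 0.36 ± 0.04, 0.16 ± 0.04 and 0.13 ± 0.04.

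Complex IV has its catalytic centres in mitochondrially encoded subunits, around which the nuclear subunits measured here are arranged. COX5B, a zinc-binding subunit on the matrix side (chr2:97646040-97648383), measured 94.3, 95.4 and 94.5 CPM in mVenus, 136, 134 and 131 in p16, 118, 127 and 126 with Torin2 and 116, 111 and 105 in p21. The p16, p21 and Torin2 libraries lay above mVenus, and p16 was 1.41-fold higher (log2 fold change 0.49 ± 0.04, adjusted p = 5.34e-11). COX7B was higher by 0.49 ± 0.05, COX4I1, which enters the complex early in assembly, by 0.36 ± 0.04 (adjusted p = 9.21e-10), and COX5A, its partner, by 0.33 ± 0.04 (adjusted p = 2.39e-07). NDUFA4 at 0.00 ± 0.04 and COX8A at 0.03 ± 0.05 were the complex IV members that did not pass. ATP5MC2 (chr12:53632726-53677408), the rotor gene, had the largest difference of any member: 80.7, 83.5 and 82.3 CPM in mVenus, 130.3, 129.6 and 118 in p16, 167, 174 and 171 with Torin2 and 106, 102 and 98.7 in p21. The groups did not overlap, with p16 1.53-fold above mVenus (0.62 ± 0.04, adjusted p = 9.99e-13).

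**Figure D2:**
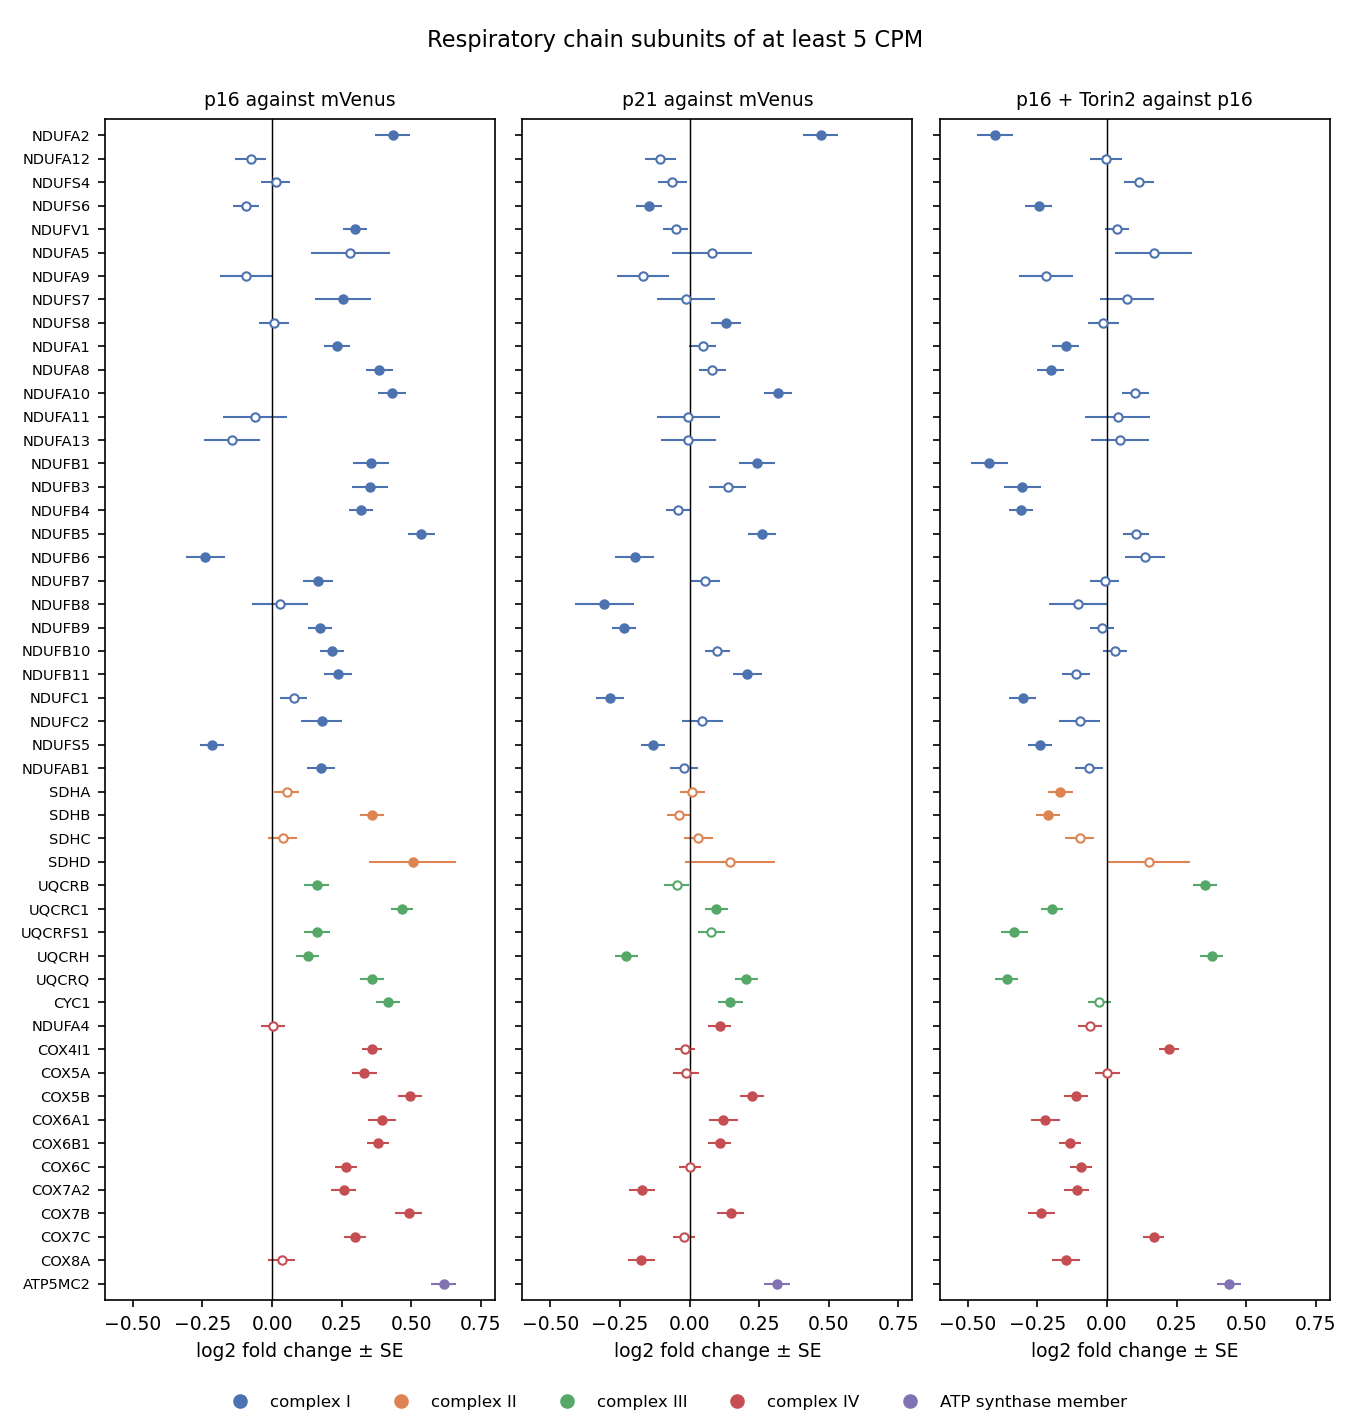
Log2 fold change ± SE of the 50 members with a mean of at least 5 CPM (rows, coloured by complex) for p16 against mVenus, p21 against mVenus and p16 with Torin2 against p16; filled points passed an adjusted p of 0.05. Points of p16 lie mostly to the right of 0 (34 filled right, 2 left), points of p21 lie on both sides (15 right, 9 left), and points of Torin2 lie mostly to the left (21 left, 5 right).

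Members have short exon models, with a median exonic length of 2263 bases against 4687 over all tested genes. Genes with short exon models as a class also stood higher in p16. This length covers all annotated exons of a gene and is not the length of the transcript made. Tested genes under 1 kb had a median log2 fold change of 0.27 in p16 against mVenus, those of 1 to 2 kb 0.12, those of 2 to 5 kb 0.01 and those over 5 kb -0.06. The members in the same classes had medians of 0.20 (6 members), 0.25 (20 members), 0.27 (15 members) and 0.25 (11 members). The members' median was thus below that of all genes in the shortest class and above it in the other 3.

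The second question was how p21, the other arrest protein, compared with mVenus. The chain genes moved in both directions: 15 of 52 members were higher and 9 lower, with a median of 0.04, where 28.2% of all tested genes were higher and 28.4% lower. No member was called at 2-fold or more, against 5.65% of all genes higher and 6.47% lower. This comparison uses the same mVenus libraries as the one for p16, so the 2 sets of values are given side by side and are not independent. By complex, 6 members of complex I were higher and 6 lower, 3 of complex III were higher and 1 lower, and 5 of complex IV were higher and 2 lower. For complex II 0 of 4 were called by edgeR, with 0 at an unadjusted p under 0.05 and 0 by DESeq2, and the log2 fold changes ran from -0.04 for SDHB to 0.15 ± 0.16 for SDHD. NDUFA2 was the highest member among those called at 0.47 ± 0.06 (adjusted p = 2.88e-07), followed by NDUFA10 at 0.32 ± 0.05 and ATP5MC2 at 0.31 ± 0.05 (adjusted p = 9.55e-07). NDUFB5 was higher by 0.26 ± 0.05, COX5B by 0.22 ± 0.04, UQCRQ by 0.20 ± 0.04 and CYC1 by 0.15 ± 0.04 (adjusted p = 0.00553). Among the lower members, NDUFC1, a small membrane arm subunit, measured 53.2, 52.2 and 54.0 CPM in mVenus and 44.2, 44.7 and 41.9 in p21, without overlap, and fell by 0.29 on the log2 scale (adjusted p = 1.78e-05). NDUFB9 fell by 0.24 (adjusted p = 4.05e-05), UQCRH by 0.23 (adjusted p = 3.91e-05), and COX7A2 and COX8A by 0.17 each. NDUFV1 (-0.05 ± 0.05), SDHA (0.01 ± 0.05), SDHB (-0.04 ± 0.04), UQCRFS1 (0.08 ± 0.05), COX4I1 (-0.02 ± 0.04) and COX5A (-0.01 ± 0.05) did not pass.

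Several p21 calls were lost when single libraries were left out. NDUFB8 (-0.31 ± 0.11), of which 48.5% of exonic bases are shared with other genes (33.8% with AL133352.1), lost its call without p21 replicate 3 (adjusted p = 0.0506), as did COX7B (0.15 ± 0.05, adjusted p = 0.0819). NDUFS6 (-0.15 ± 0.05) lost it without p21 replicate 2 (adjusted p = 0.0537). NDUFB6 (-0.20 ± 0.07) lost it without mVenus replicate 1 or 2 or p21 replicate 2 (adjusted p up to 0.121). NDUFA4 (0.11 ± 0.04) lost it without mVenus replicate 1 or 3 or p21 replicate 1 or 2 (adjusted p up to 0.104), and NDUFS8 (0.13 ± 0.05) without mVenus replicate 2 or 3 or p21 replicate 1 or 2 (adjusted p up to 0.209). Some of these calls were also lost with all libraries kept. By the DESeq2 Wald test the adjusted p was 0.07 for NDUFB8, 0.0712 for NDUFB6 and 0.056 for NDUFS8. In edgeR without a low-count filter it was 0.0646 for NDUFB8, 0.0949 for NDUFB6 and 0.167 for NDUFS6.

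Whether p16 and p21 differed was tested directly between their libraries. In p21 29 of 52 members were lower than in p16 and 1 was higher, with a median log2 fold change of -0.20, where 27.1% of all tested genes were lower and 27.2% higher. No member was called at 2-fold or more, against 6.06% of all genes higher and 5.05% lower. Tested genes with under 1 kb of exonic length had a median of -0.19 here. The median was -0.09 for 1 to 2 kb, -0.03 for 2 to 5 kb and 0.04 for over 5 kb. The members in the same classes had medians of -0.20, -0.24, -0.27 and -0.11, so those under 1 kb were close to their class. The lower members included 12 of 29 of complex I, 1 of 4 of complex II, 5 of 7 of complex III and 10 of 11 of complex IV, together with ATP5MC2 at -0.30 ± 0.04. COX7A2 (chr6:75237675-75250323), a small membrane subunit of complex IV, measured 122, 121 and 113 CPM in p16 and 89.1, 89.3 and 86.0 in p21, while mVenus stood at 103, 97.3 and 96.8 between them. Its log2 fold change was -0.43 ± 0.05 (adjusted p = 5.46e-09), the lowest of the called members. NDUFB9 was at -0.41 ± 0.04 with 86.2, 85.1 and 87.1 CPM in p16 and 63.4, 66.6 and 64.6 in p21, so that mVenus, at 78.0, 75.2 and 75.9, again lay between. SDHB was at -0.39 ± 0.04, COX4I1 at -0.37 ± 0.04, UQCRC1 at -0.37 ± 0.04, UQCRH and NDUFC1 at -0.36, and NDUFV1 and COX5A at -0.35 and -0.34. NDUFA2 (0.04 ± 0.06), SDHA (-0.04 ± 0.05), UQCRFS1 (-0.08 ± 0.05) and NDUFB6 (0.04 ± 0.07) did not pass. NDUFS7 (-0.27 ± 0.10) lost its call without p16 replicate 2 (adjusted p = 0.0657) or p21 replicate 3 (adjusted p = 0.177), and by the DESeq2 Wald test (adjusted p = 0.0717). NDUFA4 was the 1 member higher in p21, by 0.10 ± 0.04 (adjusted p = 0.0414), with 126, 122 and 121 CPM against 119, 117 and 107. That call was lost in 7 alternative settings with an adjusted p of 0.0522 to 0.237, among them leaving out p16 replicate 3 (log2 fold change 0.06) or any p21 replicate.

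The third question was how p16 cells with Torin2 compared with p16 cells with DMSO. The counts do not measure mTOR activity. With Torin2 21 of 52 members were lower than in p16 with DMSO and 5 were higher, with a median of -0.08, where 29.1% of all tested genes were lower, 30.5% higher and their median was 0.02. No member was called at 2-fold or more, against 4.68% of all genes higher and 6.4% lower. Without p16 replicate 3 the number higher was 8, with NDUFB5, SDHD and NDUFA5 added. This comparison uses the same p16 libraries as that of p16 with mVenus, so the values are again given side by side. Complex I had 9 members lower and 0 higher of 29 by edgeR (3 higher at an unadjusted p under 0.05 and 0 by DESeq2), complex II 2 lower of 4, complex III 3 lower and 2 higher of 7, and complex IV 7 lower and 2 higher of 11. The 5 higher members were ATP5MC2, UQCRH, UQCRB, COX4I1 and COX7C, and each was called in every alternative setting run.

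UQCRH, the acidic hinge protein of complex III that helps cytochrome c dock (chr1:46303631-46316776), measured 95.0, 101 and 102 CPM in mVenus, 109.9, 108 and 107 in p16, 141, 137 and 143 with Torin2 and 84.2, 86.0 and 83.7 in p21. The Torin2 libraries lay above all others and the p21 libraries below all others, and Torin2 was 1.30-fold above p16 (log2 fold change 0.38 ± 0.04, adjusted p = 4.77e-09). UQCRB, a ubiquinone-site subunit of the same complex, measured 105, 107 and 111 CPM in p16 and 145, 137 and 131 with Torin2 (0.35 ± 0.04, adjusted p = 6.3e-08). COX4I1 (chr16:85798633-85807044) measured 186, 181 and 187 CPM in mVenus, 239, 242 and 231 in p16, 274, 279 and 277 with Torin2 and 184, 188 and 177 in p21. The order mVenus or p21, then p16, then Torin2 had no overlap between its steps, and the Torin2 difference was 0.22 ± 0.04 (adjusted p = 4.01e-06). COX7C, a single-span membrane subunit of complex IV, measured 172, 179 and 167 CPM in p16 and 191, 194 and 197 with Torin2 (0.17 ± 0.04, adjusted p = 0.000495). ATP5MC2 had the largest rise with Torin2, 1.36-fold (0.44 ± 0.04, adjusted p = 6.25e-10). Reads of its 3 annotated pseudogenes amounted to 8.04% of its own counts.

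The members that fell with Torin2 were led by subunits of complexes I and III. NDUFB1, a small membrane arm subunit (chr14:92116122-92121917), measured 31.0, 28.1 and 25.8 CPM in mVenus, 36.4, 35.4 and 37.0 in p16, 26.8, 27.5 and 26.9 with Torin2 and 35.0, 32.7 and 32.9 in p21. The Torin2 libraries lay within the range of mVenus and below the p16 and p21 libraries, and the difference from p16 was -0.42 ± 0.07 (adjusted p = 2.83e-06). NDUFA2 was at -0.40 ± 0.06 (adjusted p = 3.91e-06), UQCRQ at -0.36 ± 0.04 (adjusted p = 2.25e-08), UQCRFS1 at -0.33 ± 0.05 (adjusted p = 7.46e-07) and NDUFB4 at -0.31 ± 0.04 (adjusted p = 6.56e-07). UQCRQ (chr5:132866560-132868031), which lies beside the UQCRB subunit in complex III, measured 150.5, 148 and 138 CPM in p16 and 111, 112 and 117 with Torin2, while mVenus stood at 114, 117 and 109.9. Within complex III, then, UQCRH and UQCRB were higher and UQCRQ, UQCRFS1 and UQCRC1 (-0.20 ± 0.04) were lower with the same treatment. In complex IV the largest falls were COX7B at -0.24 ± 0.05 and COX6A1 at -0.22 ± 0.05. Reads of the 2 annotated pseudogenes of COX6A1 amounted to 11.4% of its own counts. In complex II the falls were SDHB at -0.21 ± 0.04 and SDHA at -0.17 ± 0.05, and in the N module also NDUFS6 at -0.24 ± 0.05. NDUFV1 (0.04 ± 0.04), CYC1 (-0.03 ± 0.04), COX5A (0.00 ± 0.04), NDUFB6 (0.14 ± 0.07) and NDUFA4 (-0.06 ± 0.04) did not pass, although NDUFA4 passed without p16 replicate 3 (adjusted p = 0.0315).

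**Figure D3:**
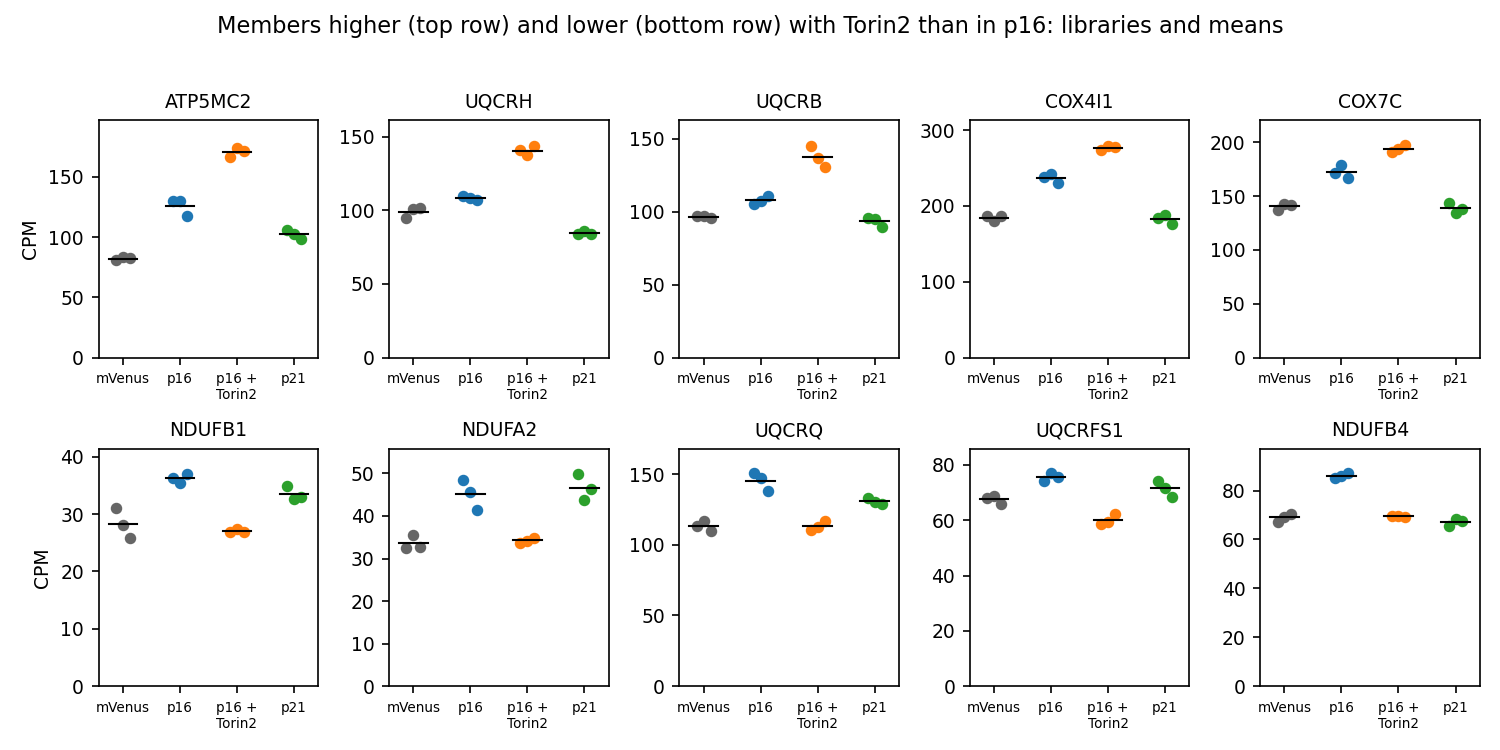
CPM (vertical axes, from 0) of the 5 members higher with Torin2 than in p16 (top row) and of the 5 with the largest falls (bottom row) in each library of the 4 groups; points are libraries and lines are group means. In the top row the Torin2 points are the highest of all groups, and in the bottom row they lie below the p16 and p21 points in every panel except NDUFB4, where the p21 points (65.3 to 68.3 CPM) lie below them.

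Transcripts that begin with a C followed by an unbroken run of pyrimidines form the class known from textbook work to depend on mTOR for their translation, so the annotated start of each member was read from RefSeq promoter sequences (GRCh38.p14). The start class was looked at after the values were seen. Entries matched 46 of the 55 members with 56 annotated starts. A run was counted where the first base was C and was followed by only C or T to at least 5 bases in all. It was present at 5 of the 56 member starts (8.93%), against 5.04% of the starts of tested genes and 4.07% of all 35116 promoters. The windows below run from 20 bases before the start to 10 bases into the transcript, with the pyrimidine run in capitals. They are the 5 members with a run, and then the 4 with the largest falls among members with an entry and no run, which therefore show no capitals.
ATP5MC2: tcgctcttcccgctgctccgCCCCTCTCTg
UQCRH: ctgagtgacccttacaagtcCTTCTTgatc
COX4I1: ctccgcggcgcggccttgctCTCTTCCggt
COX7C: ccgccccatttcccatctttCTTTTCagtc
NDUFC1: ccccctcgcaatgggccccaCCTCCCgaga
NDUFB1: gtcccgaggtcgcagcttccactggcgcgg
NDUFA2: ccgcggttggtcagaccggagcacttggcc
UQCRQ: ccaaccttgccggaaatgacgaacgagtca
UQCRFS1: gtggttggaaggtcgtccctgtgaccggct
The windows lie at chr12:53676074-53676103 (minus strand, 1 of 3 annotated starts of ATP5MC2), chr1:46303678-46303707 (plus, UQCRH), chr16:85799675-85799704 (plus, COX4I1), chr5:86617921-86617950 (plus, COX7C) and chr4:139302542-139302571 (minus, 1 of 4 starts of NDUFC1). Those without a run lie at chr14:92121697-92121726 (minus, NDUFB1), chr5:140647621-140647650 (minus, NDUFA2), chr5:132866622-132866651 (plus, UQCRQ) and chr19:29213142-29213171 (minus, UQCRFS1). The last 10 bases of each window are the first bases of the annotated first exon, and which start these cells used was not measured.

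With Torin2 4 of the 5 members with a run were higher and the fifth, NDUFC1, was lower (-0.30 ± 0.05, adjusted p = 6.87e-06). Of the 38 tested members with an entry but no run, 0 were called higher and 18 lower, with a median of -0.11. By edgeR 2 of those 38 were higher at an unadjusted p under 0.05, and 0 by DESeq2. UQCRB, the remaining member that was higher, had no entry. Over all tested genes with an entry, 365 of 725 with a run were higher and 154 lower with a median of 0.19, and 2838 of 9319 without a run were higher and 2972 lower with a median of 0.0008. In p16 against mVenus the members with a run had a median of 0.30 (4 of 5 higher) and those without 0.26 (24 of 38 higher), while 288 of 725 tested genes with a run and 2885 of 9319 without were higher. In p21 against p16 all 5 members with a run were lower, with a median of -0.36, as were 19 of 38 without, with a median of -0.17. Over all tested genes 276 of 725 with a run (38.1%) and 2611 of 9319 without (28.0%) were lower.

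**Figure D4:**
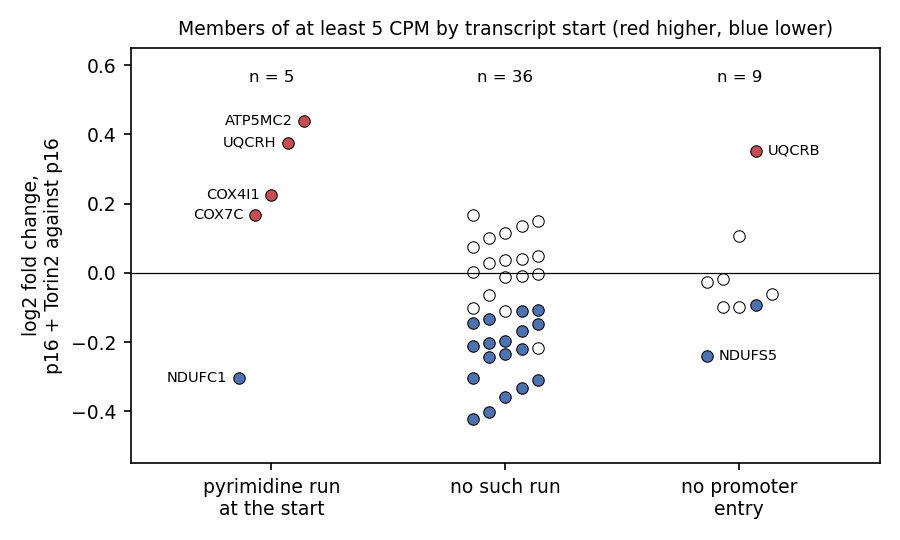
Log2 fold change of p16 with Torin2 against p16 (vertical axis) for the 50 members of at least 5 CPM, split by whether an annotated transcript start has a pyrimidine run, has none, or has no promoter entry; red points were called higher, blue lower, white neither. Members with a run take 4 of the 5 red points and 1 blue point, and UQCRB, without an entry, is the fifth red point.

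Promoters of chain genes are known for sites of the transcription factors NRF1, GABP of the ETS family and YY1, which were searched as letters on both strands of the 300 bases from 250 before to 50 after each start. The NRF1 motif was found in 16.1% of the 56 member promoters, against 9.72% of those of tested genes and 5.78% of all promoters. For the ETS motif CCGGAAG the shares were 25%, 16.4% and 10.3%, and for the YY1 motif AAGATGGCG 12.5%, 3.37% and 1.75%. The AAG that ends the ETS motif also begins the YY1 motif and the GCG that ends the YY1 motif also begins the NRF1 motif, so matches can overlap. Windows with the NRF1 motif in capitals are shown for 3 members with its palindromic form, as examples of the sequence counted.
NDUFA8: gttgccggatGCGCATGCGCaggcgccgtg
SDHD: agctgtgtttGCGCATGCGCgacgggtgtg
NDUFB4: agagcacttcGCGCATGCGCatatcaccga
They lie at chr9:122159764-122159793 (minus strand, NDUFA8), chr11:112086753-112086782 (plus, SDHD) and chr3:120596167-120596196 (plus, NDUFB4). Of the 9 tested members with the NRF1 motif, 5 were higher in p16 than in mVenus (median 0.16), against 23 of 34 without it (median 0.27). Of the 13 with the ETS motif 10 were higher (median 0.36), against 18 of 30 without it (median 0.25). Of the 6 with the YY1 motif 3 were higher (median 0.14), against 25 of 37 without it (median 0.28). Over all tested genes, with or without a motif, 30.9% were higher in this comparison. All tested genes were not split by these motifs, the classes of members are small, and a part of the motifs in the differences was not tested.

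A last comparison set p16 cells with Torin2 against mVenus cells without it, where 28 of 52 members were higher and 7 lower with a median of 0.15, against 31.2% and 36.2% of all tested genes. Complex IV had 9 of 11 higher and 1 lower, complex III 4 of 7 higher and 1 lower, and complex I 12 of 29 higher and 4 lower. ATP5MC2 was 2.08-fold above mVenus (1.06 ± 0.04, adjusted p = 2.82e-18) and was the only member called at 2-fold or more in the 5 comparisons, where 7.5% of all genes were higher and 9.88% lower by that rule in this one. SDHD (0.66 ± 0.15), NDUFB5 (0.64 ± 0.05), COX4I1 (0.58 ± 0.04), NDUFA10 (0.53 ± 0.05), UQCRB (0.51 ± 0.04), UQCRH (0.50 ± 0.04), COX7C (0.46 ± 0.04), CYC1 (0.39 ± 0.04), COX5A and NDUFV1 (0.33 ± 0.04 each) and SDHB (0.15 ± 0.04) were higher. NDUFS5 at -0.46 ± 0.04 (adjusted p = 2.58e-10), NDUFS6 at -0.34 ± 0.05, NDUFA9 at -0.31 ± 0.10, NDUFC1 at -0.23 ± 0.05 and UQCRFS1 at -0.17 ± 0.05 were lower. NDUFA5 (0.45 ± 0.14) lost its call without mVenus replicate 1 or Torin2 replicate 1 (adjusted p up to 0.055). The calls of SDHA (-0.11 ± 0.05) and COX8A (-0.11 ± 0.05), lower, and of NDUFS4 (0.13 ± 0.05) and NDUFAB1 (0.11 ± 0.05), higher, had adjusted p between 0.0291 and 0.0493 and each was lost in at least 4 of the settings tried, with an adjusted p up to 0.251. Those settings included leaving out mVenus replicate 3 for all 4 genes (adjusted p of 0.149, 0.0761, 0.0928 and 0.128), mVenus replicate 1 for SDHA and NDUFAB1, mVenus replicate 2 for COX8A and NDUFS4, Torin2 replicate 1 for SDHA and COX8A, Torin2 replicate 2 for NDUFAB1 and Torin2 replicate 3 for all 4. NDUFB4, UQCRQ and NDUFA2, which were higher in p16, had log2 fold changes of 0.01 ± 0.04, -0.00 ± 0.04 and 0.03 ± 0.07 here and did not pass. Among the 50 members of at least 5 CPM, p16 had the highest group mean for 26, Torin2 for 14, mVenus for 7 and p21 for 3, while mVenus was lowest for 20, p21 for 17, Torin2 for 10 and p16 for 3. The highest mean was a median of 1.28 times the lowest.

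Other genes of oxidative phosphorylation are given here as counts beside the members. Over all tested genes 30.9% were higher in p16 than in mVenus. With Torin2 against p16 30.5% were higher and 29.1% lower, and in p21 against p16 27.2% were higher and 27.1% lower. Of 16 tested other subunits of ATP synthase, 13 were higher in p16, led by ATP5F1D at 0.56 ± 0.05, and 12 were lower and 1, ATP5PD at 0.11 ± 0.04, higher in p21 than in p16. With Torin2 8 were lower and 1 higher. ATP5MC1 and ATP5MC3, which encode the same mature c subunit as ATP5MC2, fell with Torin2 by 0.37 (± 0.05) and 0.26 (± 0.04) where ATP5MC2 rose by 0.44, and ATP5MF fell by 0.58 (± 0.06), whereas ATP5PO rose by 0.34 ± 0.06. In p16 against mVenus all 3 c subunit genes were higher, ATP5MC1 by 0.26 ± 0.05 and ATP5MC3 by 0.25 ± 0.04. Of 6 tested structural subunits of complexes I to IV outside the 55 members, 5 were higher in p16, UQCR11 most at 0.55 ± 0.09. With Torin2 4 of them were lower, UQCR10 most at -0.51 ± 0.05, and 1, the supercomplex factor COX7A2L, was higher at 0.34 ± 0.05. The tissue and stress isoforms COX4I2, COX6A2, COX7B2 and COX8C had 0 counts, and COX7A1, COX6B2 and NDUFA4L2 had 15, 6 and 23 counts over all 12 libraries.

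Assembly factors of the complexes are given next. The shares of all tested genes were 30.9% higher and 32.8% lower in p16, 29.1% lower with Torin2 and 27.1% lower in p21 than in p16. In p16 9 of 19 complex I factors were higher and 2 lower, with DMAC1 at 1.16 ± 0.07 and NDUFAF4 at 0.61 ± 0.10, and 6 of 10 factors of complexes II and III were higher, with LYRM7 at 0.93 ± 0.13 and SDHAF3 at 0.92 ± 0.15. Of 22 complex IV factors 13 were higher, COX14 (0.60 ± 0.08) and the mitochondrial mRNA-binding protein gene LRPPRC (0.59 ± 0.04) most, and 6 were lower, PET117 (-0.72 ± 0.23) and COX20 (-0.70 ± 0.28) most. Of 8 tested enzymes and carriers that feed electrons into the chain, 4 were higher in p16, ETFB most at 0.67 ± 0.07, and 6 were lower in p21 than in p16, SQOR most at -0.60 ± 0.06. With Torin2 4 of them were lower, ETFDH most at -0.77 ± 0.07.

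Among 14 tested regulators of mitochondrial biogenesis, 7 were higher and 5 lower in p16. With Torin2 9 were higher than in p16, and in p21 8 were lower than in p16. As background for the counts in this paragraph, p16 against mVenus had 30.9% of all tested genes called up and 32.8% called down. The share called up was 28.2% for p21 against mVenus. Torin2 against p16 had 30.5% up and 29.1% down, and p21 against p16 had 27.1% down. MYC went from a mean of 64.6 CPM in mVenus to 326 in p16, 446 with Torin2 and 109 in p21 (2.34 ± 0.04 in p16), PPARGC1B, a coactivator, was higher by 1.33 ± 0.09 and ESRRA, a nuclear receptor, by 0.88 ± 0.07. NRF1 and GABPA, whose motifs are given above, were lower in p16, by -0.47 ± 0.10 and -0.38 ± 0.08, and TFAM, the mitochondrial DNA packaging factor, was at -0.16 ± 0.06 in p16 and 0.52 ± 0.06 with Torin2. All 13 mitochondrially encoded mRNAs of the chain and ATP synthase were higher both in p16 (median 0.68) and in p21 (median 0.84), while among the nuclear members the medians were 0.25 and 0.04. With Torin2 2 of these 13 were higher and 4 lower than in p16. Of 14 citric acid cycle genes 3 were higher and 7 lower in p16, IDH2 most at -2.25 ± 0.13.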

How the data were processed

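Poly-A RNA of 12 MCF10-A cultures (4 groups of 3 biological replicates, per the labels) was sequenced with a stranded kit. The deposited values are raw counts per gene name, made by the authors with featureCounts 1.6.3 on GENCODE 29 exons without a strand option, per the file headers, so reads of overlapping genes on opposite strands cannot be separated. HISAT2, GRCh38.p7 and DESeq2 are named in the submitters' processing notes. The authors' own comparison tables were not used. Libraries held 13168749 to 18321114 counts, and 57133 gene names were listed.

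From these counts edgeR 4.0.16 (R 4.3.3, limma 3.58.1) fitted all 12 libraries in 1 model, with TMM scaling, a low-count filter that kept 14504 genes and the robust quasi-likelihood test on 8 residual degrees of freedom. The Benjamini-Hochberg threshold was 0.05 over all tested genes, in 5 comparisons. The common biological coefficient of variation was 3.94%, and the smallest correlation between replicates was 0.991. CPM values use TMM-scaled library sizes, and TPM divides counts by exonic length. The procedure was tested on simulated counts. The members and lists were chosen with earlier results of these data known. Genes named are a set of core subunits of each complex, and for each comparison and module or list the 2 largest rises and 2 largest falls among called genes; other genes named were chosen after their values were seen. Alternatives were DESeq2 1.42.0, its size factors, no filter, only the libraries compared, a replicate block, scaling without mitochondrial and ribosomal protein genes, members with little exonic overlap, members of at least 5 CPM (added after seeing the data), and leaving out each library. Summaries used Python 3.11.15, pandas 2.3.3, numpy 2.4.6 and matplotlib 3.10.9. Promoter sequences are RefSeq's (GRCh38.p14).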

Additional observations from a re-analysis of the deposited data

How the results depend on the processing

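No named member that was called changed sign under any alternative run, while NDUFS1, NDUFV1, NDUFA4, SDHA, SDHB, CYC1, COX4I1 and COX5A did in at least 1 setting of a comparison in which they were not called. The alternatives were fitted for all tested genes but followed gene by gene only for a chosen set of members in each comparison. Of 1320 settings of these single genes, 1253 kept their side of the threshold. Calls outside that set were not followed this way, among them UQCRC1 (edgeR adjusted p = 0.0455) and COX6A1 (0.0473) in p21 against mVenus. In p16 against mVenus the members' median log2 fold change was 0.26 with the DESeq2 Wald test and with DESeq2's size factors, 0.29 without a low-count filter, 0.27 for members with under 30% of exonic bases shared, and 0.23 to 0.27 leaving out 1 library. In p21 against mVenus 5 members were lower without a filter, and the median was 0.064. With Torin2 against p16 the number higher was 5 to 8 and the median -0.10 to -0.048 leaving out 1 library. In p21 against p16 the number higher was 0 with the DESeq2 Wald test, with its size factors and without a filter, 2 with only the libraries compared, and 0 to 2 leaving out 1 library (0 without p16 replicate 3, p21 replicate 1 or p21 replicate 2, and 2 without p16 replicate 1), with a median of -0.21 to -0.18. For Torin2 against mVenus the median was 0.18 without a filter and with only the libraries compared. The cause of these shifts was not tested, except that the settings with fewer libraries or other genes tested differ by construction.

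Same-numbered replicates did not visibly deviate together (correlations -0.0822 to 0.0754), and differently numbered libraries of different groups ranged from -0.0959 to 0.138. Whether the samples were paired by design cannot be told from these correlations. With the replicate number as a block the members higher and lower were 34 and 2 in p16 against mVenus, 14 and 9 in p21 against mVenus, 5 and 20 with Torin2 against p16, 1 and 30 in p21 against p16, and 27 and 7 with Torin2 against mVenus. NDUFS1 (332 counts) and UQCRC2 (496 counts) varied widely among replicates, and NDUFS1 passed for Torin2 against mVenus when only those libraries were fitted (1.35, adjusted p = 2.07e-05).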

Other observations

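The 5 members of lowest count had 0 to 496 counts, and several of their neighbours in the GENCODE 29 annotation did too. NDUFA6 (0 counts) lies beside SMDT1 (0 counts) and PHETA2 (1 count). NDUFS3 (1 count) overlaps KBTBD4 (0 counts), while CELF1, which also borders it, had 26377. NDUFS1 (332 counts) lies beside EEF1B2 (396 counts) and INO80D (75 counts); EEF1B2 encodes a translation elongation factor. NDUFV2 (43 counts) differs in that its neighbour ANKRD12 had 13793 counts, and its annotated pseudogene had 729. UQCRC2 (496 counts) lies near METTL9 (151 counts) and EEF2K (108 counts). These values were chosen for mention after they were seen, and their cause was not tested.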
